A study of Mus musculus with 6 samples.

Results

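The endothelial cells described here were taken from the P12 cerebral cortex of Nodal lox/lox control mice and of Nodal iPCKO mice, in which a tamoxifen-inducible Cre recombinase under the Pdgfrb(BAC)-CreERT2 transgene deletes floxed Nodal in pericytes and other cells with Pdgfrb promoter activity. Of 3015 control and 4750 iPCKO barcodes with at least 1500 unique molecular identifiers (UMIs, 1 per captured transcript) and a mitochondrial share of at most 17%, 776 and 1424 were members, which is 2200 of 7765 cells of the cortex and of 67751 in the 6 libraries of the series. A member had at least 1 UMI of at least 4 of the 7 genes Cldn5, Pecam1, Egfl7, Tie1, Flt1, Ly6c1 and Slco1a4, and at most 1 UMI in total over Kcnj8, Abcc9, Aqp4, P2ry12, Col1a2 and Myh11, which mark pericytes, astrocytes, microglia, fibroblasts and smooth muscle. Both groups received 50 µg tamoxifen on P1 to P3, were used irrespective of sex and carry the floxed Nodal alleles, while the label of the control names no Cre transgene. Each library held cells of 2 pooled mice and there was 1 library per genotype, so the comparison has no replicate: no p-value is given, intervals are 95% intervals that cover counting error only, and differences between mice and between genotypes cannot be told apart. The question the comparison addresses is how the endothelium differs when a pericyte-derived ligand is removed.

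Endothelial cells of the brain line capillaries whose walls form the blood-brain barrier. They seal the space between cells with tight junctions, carry glucose, amino acids, lipids and hormones across by solute carriers, pump out foreign compounds with ABC transporters, and keep vesicular transport low. In the first postnatal weeks these vessels still sprout and divide, under VEGF, Wnt, Notch and TGF-beta family signals, while arteries, capillaries and veins take on distinct gene expression and pericytes cover the capillary bed.

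The cells were sequenced deeply. The median was 9790.5 UMIs and 3480.5 genes per cell in the control and 10064 UMIs and 3502 genes in iPCKO, from 8916550 and 16549334 UMIs in all. The gate values were far from the limits for most cells, since 604 control and 1095 iPCKO members had all 7 markers, whereas 6 and 28 had exactly 4 and 13 and 23 further barcodes just missed the gate with 3. A single UMI of the excluded genes was present in 132 of 776 control and 122 of 1424 iPCKO members. Among barcodes with enough markers, 45 and 80 were left out with 2 or more such UMIs, 23 and 13 of them with exactly 2. The libraries shared 1 member barcode, and 20 barcodes among all cells past the limits.

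Nodal, the targeted ligand of the TGF-beta family, was counted first. It had 0 UMIs in the endothelial cells of both libraries, which allows up to 0.387% of control and 0.211% of iPCKO cells with a UMI. In 47 control and 43 iPCKO cells chosen by a pericyte gate, Nodal had 39 UMIs in 20 control cells, 42.6% (28.3 to 57.8%), and 0 UMIs in iPCKO, which allows up to 6.98% of cells. Elsewhere in the iPCKO library Nodal had 3 UMIs in 1420 microglia, 1 in 545 astrocytes and 1 in the barcodes of 10 to 200 UMIs, where the control had 0, 0 and 12. In endothelial cells Nodal was not detectable at this depth in either genotype. Which exons lie between the lox sites is not given in the sources used here.

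Genes outside the gate showed an endothelial profile. Of 30 pan-endothelial genes that were not used for the choice, 29 passed the filter of a mean of 20 CPM over the 2 libraries (CPM is the usual scaled count, the UMIs of a gene over those of all genes in the same cells). Kdr, the main VEGF receptor, was found in 99.2 and 98.5% of control and iPCKO members, and Ramp2, a subunit of the adrenomedullin receptor, in 98.5 and 98.9%. Cdh5, the adherens junction cadherin of endothelium, was found in 92.8 and 91.9% of members. Sox18, an endothelial transcription factor, was 5.23 log2 units above all other cells of the control library, and Erg 4.88 units.

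Transcripts of pericytes, smooth muscle and microglia were present at low level, and those of astrocyte markers at a higher one. Summed over each list, 13 pericyte and smooth muscle markers reached 81.3 and 49.5 CPM in control and iPCKO members. In barcodes of 10 to 200 UMIs, which hold mostly free RNA, they reached 2701 and 2565 CPM. In members, 12 microglia markers reached 141 and 132 CPM. The gate limits UMIs of genes of these 2 types, so low sums in members follow in part from how they were chosen. No listed marker of these 2 types was at 0 in both libraries. The 12 astrocyte markers summed to 3340 and 3441 CPM in members, against 8653 and 7141 CPM in barcodes of 10 to 200 UMIs. Rgs5, a pericyte gene, had 48.2 and 27.3 CPM and was found in 29 and 16% of members, but it was also found in 13.2 and 8.87% of microglia, chosen by the same kind of gate. Xist was found in 84.4 and 87.4% of members and a UMI of the Y-linked Eif2s3y, Kdm5d or Uty in 10 and 13 members. With Ddx3y added, a Y-linked UMI was found together with Xist in 239 control and 402 iPCKO members and without Xist in 22 and 33, so subsets of members by these UMIs are no clean split by sex. Gm47283, placed on the Y chromosome by the annotation, was higher in iPCKO at 17.8 and 58.9 CPM, a log2 ratio of 1.72 in members, 1.26 in all other cells and 1.10 in barcodes of 10 to 200 UMIs. The make-up of the pools by sex was not tested.

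Abundant transcripts of the control members, the gate and mitochondrial genes left out, came from genes of several kinds. Tmsb4x, which encodes the actin-binding thymosin beta 4, had 12229.6 CPM, and Bsg, the immunoglobulin protein basigin that accompanies monocarboxylate transporters, had 10340.5 CPM. Sparc, a matrix glycoprotein, had 6908 CPM, and Spock2, a proteoglycan of brain endothelium, 4471 CPM. Among genes of at least 50 CPM, the largest ratios of members over all other cells were 6.20 log2 units for the arterial semaphorin Sema3g, 5.65 for Gkn3 and 5.48 for Depp1, a target of FOXO factors. These values describe cells that were chosen by their endothelial transcripts and carry no test.

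Between the libraries, most genes lay close together. Of 6617 genes past the filter, 71 were at least 1.5-fold higher in iPCKO and 72 at least 1.5-fold lower, which is 1.07 and 1.09% of the genes and 2.16% in either direction, and 15 and 5 of them differed by at least 2-fold. The median log2 ratio of iPCKO over control was -0.02, with quartiles of -0.14 and 0.10. Each called gene had a counting interval that did not include 0. In what follows, a pair of CPM values gives the control first and iPCKO second, and the values in parentheses after it are the log2 ratio of iPCKO over control and its interval. The same ratio in all other cells of the 2 libraries had a median of 0.40 over the 59 genes called higher and -0.33 over the 51 called lower that reached the filter there, and in barcodes of 10 to 200 UMIs the medians were 0.50 and -0.48 over 67 and 66 genes. All other cells are the barcodes past the limits that were not members. They include 45 control and 80 iPCKO barcodes with at least 4 gate markers and 2 or more UMIs of the excluded genes. These populations come from the same 2 libraries, and their part in the result was not tested.

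**Figure D1:**
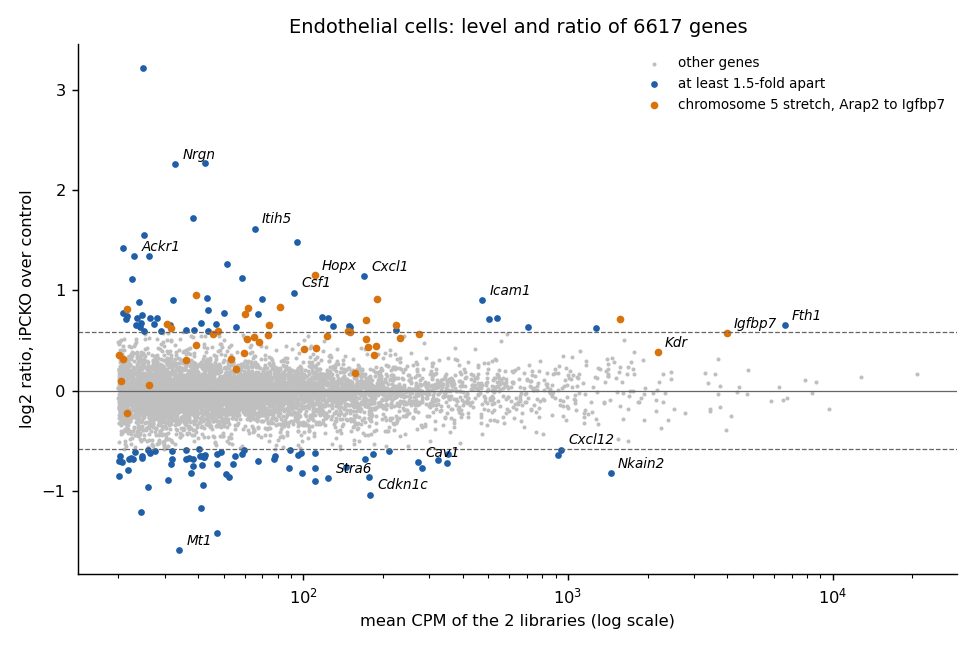
Log2 ratio of iPCKO over control against the mean CPM of the 2 libraries on a log scale, for the 6617 genes past the filter in endothelial cells; dashed lines mark 1.5-fold, blue points are genes past it and orange points are genes of a stretch of chromosome 5. Most points sit between the lines, Itih5 and Cxcl1 stand above and Cdkn1c and Mt1 below, and the orange points sit above 0 with 1 exception.

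Several genes of leukocyte adhesion and inflammatory activation were higher in iPCKO endothelium. Of 30 genes listed, 19 passed the filter, 8 were at least 1.5-fold higher, beside 1.07% of all genes, and none was lower. The list was chosen with earlier results of these data known, so this count is a description and no test. The median log2 ratio of the 19 genes was 0.29 beside -0.02 over all genes, and the median of the list was 0.13 in all other cells and 0.23 in barcodes of 10 to 200 UMIs. Icam1, the adhesion molecule that binds leukocyte integrins (chromosome 9 from 20926672 to 20940113 of GRCm39), had 331 CPM in the control and 619.8 CPM in iPCKO, a log2 ratio of 0.90 (0.84 to 0.96). It was found in 55.7 and 69.5% of members. Cxcl1, a chemokine that attracts neutrophils (chromosome 5 from 91039094 to 91040974), had 106 CPM in the control and 233 CPM in iPCKO, a ratio of 1.14 (1.04 to 1.24), and the share of members with a UMI was 25 and 46.8%. The related chemokine Cxcl2, which is not on the list, had 30.3 and 72.8 CPM, a ratio of 1.26 (1.07 to 1.46). The intervals of the 2 ratios overlapped. Ptges, a prostaglandin E synthase that was noticed after its value was seen, had 49.8 and 84.8 CPM (0.77, 0.61 to 0.92).

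The further called members of the list act as growth factors, enzymes, receptors and regulators. Csf1, the growth factor of macrophages and microglia, had 62.2 and 122 CPM, a log2 ratio of 0.98 (0.84 to 1.11), and Ptgs2, the inducible cyclooxygenase of prostaglandin synthesis, had 48.6 and 91.2 CPM, a ratio of 0.91 (0.75 to 1.07). Tnfaip3, a deubiquitinase that limits NF-κB signalling, had 93.3 and 154 CPM (0.73, 0.61 to 0.84), and Relb, an NF-κB subunit, 20 and 30.1 CPM (0.59, 0.34 to 0.85). Relb was under the fold in 4 alternatives, with ratios of 0.55 to 0.58. Vcam1, a second integrin ligand, had 36.3 and 57.4 CPM (0.66, 0.48 to 0.85), and Ackr1, a chemokine-binding receptor of venules, 13 and 33 CPM (1.34, 1.05 to 1.64). With a mitochondrial share of at most 10% Vcam1 was under the fold, at 0.58. The counts behind Ackr1 were 116 and 546 UMIs. Not every gene of the list differed, since Nfkbia, the inhibitor of NF-κB that its own pathway induces, had 1228 and 1338 CPM (0.12), Cd34 975 and 885 CPM (-0.14) and Vwf 258 and 323 CPM (0.32), and Sele, Il6 and Ccl2 were below 20 CPM.

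Ratios above 0 were also found outside the members. In all other cells of the same libraries the log2 ratio was 1.37 for Cxcl1, 1.43 for Cxcl2, 1.06 for Csf1 and 1.17 for Ptgs2, and 0.46 for Icam1, 0.43 for Tnfaip3 and -0.34 for Vcam1, below 0. In barcodes of 10 to 200 UMIs the ratio was 1.16 for Cxcl1, 1.18 for Cxcl2, 1.18 for Csf1 and 1.46 for Ptgs2. In the same barcodes it was 0.43 for Icam1, 0.36 for Tnfaip3 and 0.22 for Vcam1. Icam1 had there 729.8 and 981 CPM, above its level in members, and Cxcl1 had 54.1 and 121 CPM, below it. The 1% of members with the most UMIs of a gene, 8 control and 15 iPCKO cells, held 44.8 and 36.3% of the UMIs of Ptgs2, and without them its ratio was 1.12. For Icam1 the ratio without such cells was 0.94 and for Cxcl1 1.20. Within cells that carried artery, vein, tip or mitosis markers, defined further on, the ratio of Icam1 was 1.02, 0.84, 0.82 and 0.85, at levels in vein-marker cells of 522 and 936 CPM and in artery-marker cells of 108 and 219.5 CPM. The level was lowest in artery-marker cells in both libraries, and iPCKO was higher in each class.

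Promoter sequences of this list are shown because 8 of its genes were higher together. RefSeq promoter windows (GRCm38.p6) were found for 23 of the 30 genes, and the 250 bases before the start were searched on both strands for the NF-κB consensus, a motif chosen after the values had been seen. It was present in 8 of the 23 genes, 34.8%, against 2225 of 27025 genes with a window, 8.23%. Of the 8 called genes, 6 had a window and Csf1, Cxcl1 and Tnfaip3 held the motif, while Icam1, Ptgs2 and Ackr1 had no match to these letters in this window, nor had a second start of Tnfaip3 at chr10:19011964-19012213. Madcam1, Nfkbia, Il1r1, Il6 and Nfkb2 also held the motif and were not called. The list itself holds genes of the NF-κB pathway, so an excess over all genes is no result of these data. A match is a description of the sequence and no evidence of binding. The 3 windows are shown 5′ to 3′ on the strand of the gene, with matches to the consensus in capitals, for Cxcl1 at chr5:90890995-90891244 (plus strand), where matches on both strands overlap, for Csf1 at chr3:107760470-107760719 (minus strand) and for Tnfaip3 at chr10:19015411-19015660 (minus strand).
Cxcl1: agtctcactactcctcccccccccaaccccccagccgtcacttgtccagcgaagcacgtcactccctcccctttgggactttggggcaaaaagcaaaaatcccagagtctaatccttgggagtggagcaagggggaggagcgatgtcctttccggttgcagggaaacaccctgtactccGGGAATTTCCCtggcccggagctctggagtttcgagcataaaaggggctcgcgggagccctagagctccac
Csf1: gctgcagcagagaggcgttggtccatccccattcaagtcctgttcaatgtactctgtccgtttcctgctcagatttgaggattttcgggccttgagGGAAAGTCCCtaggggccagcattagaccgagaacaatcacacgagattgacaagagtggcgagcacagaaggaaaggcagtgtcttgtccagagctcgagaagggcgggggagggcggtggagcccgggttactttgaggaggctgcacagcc
Tnfaip3: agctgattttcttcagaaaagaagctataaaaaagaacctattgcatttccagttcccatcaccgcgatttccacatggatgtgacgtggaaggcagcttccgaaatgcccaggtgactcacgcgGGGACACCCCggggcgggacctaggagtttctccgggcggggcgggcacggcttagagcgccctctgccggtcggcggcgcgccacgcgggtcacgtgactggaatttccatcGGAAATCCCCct
The run of capitals in Cxcl1 lies from 71 to 61 bases before the start, that of Csf1 from 154 to 145, and the 2 runs of Tnfaip3 from 125 to 116 and from 12 to 3.

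The largest rise among genes of at least 50 CPM concerned the matrix. Itih5, a heavy chain of the inter-alpha-trypsin inhibitor family that binds hyaluronan (chromosome 2 from 10158281 to 10261340), had 32.3 CPM in the control and 98.9 CPM in iPCKO, a log2 ratio of 1.61 (1.43 to 1.80), 3.06-fold. It was found in 18 and 43% of members. In all other cells the ratio was -0.29, at 174 and 143 CPM, and in barcodes of 10 to 200 UMIs 0.22, at 79.6 and 92.5 CPM. The rise in endothelial cells thus had no counterpart of its size in the other cells, and the control endothelium lay below the free RNA. Its ratio was 2.07, 1.38, 1.88 and 2.04 in cells with artery, vein, tip and mitosis markers and 1.72 in cells with none of these.

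Further rises concerned nuclear proteins, iron storage and growth factor binding. Hopx, an atypical homeodomain protein, had 68.7 and 153 CPM, a log2 ratio of 1.15 (1.02 to 1.28), and -0.08 in all other cells. Its ratio was 0.83, 1.32, 1.29 and 0.90 in cells with artery, vein, tip and mitosis markers, but 0.095 (-0.28 to 0.48) in cells with none of these, under the fold. H1f2, a linker histone, had 36.8 and 80.1 CPM (1.12, 0.95 to 1.30), and Fth1, the ferritin heavy chain that stores iron, had 5140.3 and 8072 CPM (0.65, 0.64 to 0.67). Igfbp3, a binding protein of insulin-like growth factors, had 119 and 181 CPM (0.60, 0.50 to 0.70), but was under the fold at 0.47 in members with 0 UMIs of the excluded genes and at 0.55 with a mitochondrial share of at most 10%. Fth1 was the most abundant gene called in either direction, and its ratio was 0.40 in all other cells and 0.63 in barcodes of 10 to 200 UMIs. In the same 2 populations the ratios were 1.78 and 0.63 for Igfbp3 and 0.61 and 0.86 for H1f2. Chic2, Tmem165, a Golgi membrane protein, and Commd8 were also among the 12 largest rises, with ratios of 0.91, 0.83 (0.69 to 0.97) and 0.82 (0.66 to 0.98). These 3 genes and Hopx lie in 1 stretch of chromosome 5, which is described further on.

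Among the genes that were lower in iPCKO, Cdkn1c showed the largest fall of those of at least 50 CPM. This gene encodes p57, an inhibitor of cyclin-dependent kinases (chromosome 7 from 143012069 to 143014806), and had 241 CPM in the control and 117 CPM in iPCKO, a log2 ratio of -1.04 (-1.13 to -0.95). It was found in 58.5 and 43.7% of members. Its level was 616 and 390.1 CPM in artery-marker cells and 117 and 51.5 CPM in vein-marker cells, with ratios of -0.66 and -1.18, and in all other cells the ratio was -0.35. Cdkn1a and Cdkn1b, which encode the related inhibitors p21 and p27, had ratios of 0.31 (0.26 to 0.36) and -0.18 (-0.26 to -0.10) and were not called. Of 12 G1 cyclins and inhibitors past the filter Cdkn1c was the single gene called, beside 1.09% of all genes called lower, and the median was -0.07.

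Stra6, the cell-surface receptor that takes up retinol from its binding protein, had 161 and 87.8 CPM (-0.87, -0.98 to -0.77), and Clec2d, a C-type lectin-like ligand of natural killer receptors, 144 and 77.2 CPM (-0.90, -1.02 to -0.79). In all other cells their ratios were above 0, at 0.60 and 0.28, and in barcodes of 10 to 200 UMIs below it, at -0.35 and -0.28. Edn3, which encodes the vasoactive peptide endothelin-3, had 111 and 65.2 CPM (-0.77, -0.89 to -0.64), and Zfp366, a zinc finger repressor, 182 and 107 CPM (-0.76, -0.86 to -0.67). The matrix genes Fbln2, a fibulin, and Col14a1, a fibril-associated collagen, had ratios of -0.77 (-0.88 to -0.66) and -0.86 (-1.02 to -0.69). Iqcb1, a ciliary protein, had 229 and 126 CPM (-0.86, -0.95 to -0.77), Depp1 126 and 71.2 CPM (-0.82, -0.94 to -0.70) and Fam13a 65.4 and 36.7 CPM (-0.83). Nkain2, a partner of the sodium pump, and Ctnna3, an alpha-catenin of heart and brain, had ratios of -0.82 (-0.86 to -0.79) and -0.77 (-0.84 to -0.70).

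Outside the members too, most of these falls had ratios below 0. All other cells include barcodes with endothelial markers that failed the gate, so these ratios do not separate endothelial from other cell types. In all other cells the log2 ratio was -0.74 for Nkain2, -0.75 for Ctnna3, -0.93 for Depp1, -0.95 for Zfp366, -0.98 for Edn3 and -0.58 for Col14a1. In barcodes of 10 to 200 UMIs it was -0.67, -0.74, -0.80, -0.77, -0.33 and -0.69 for the same genes. Fbln2, Iqcb1 and Fam13a had -0.32, -0.31 and -0.56 in all other cells and -0.69, -0.32 and -0.28 in these barcodes. In those barcodes Nkain2 and Ctnna3 were above their level in endothelial cells, at 2451 and 1539.9 CPM for Nkain2. Fbln2 and Edn3 were found mainly in artery-marker cells, a class defined further on, which held 1048 of 1243 and 564 of 990 of their control UMIs. Within that class their ratios were -0.34 and -0.43, under the fold. Fbln2 had -0.67, -1.15, -0.88 and -0.65 in cells with vein, tip and mitosis markers and with none, from at most 67 UMIs per library, and Edn3 had -0.65, -0.84, -0.04 and -1.02. Among falls with a mean below 50 CPM, Tmem100, a membrane protein of endothelium downstream of BMP signalling, had the largest after Mt1, at 68.6 and 25.7 CPM (-1.42, -1.60 to -1.24).

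**Figure D2:**
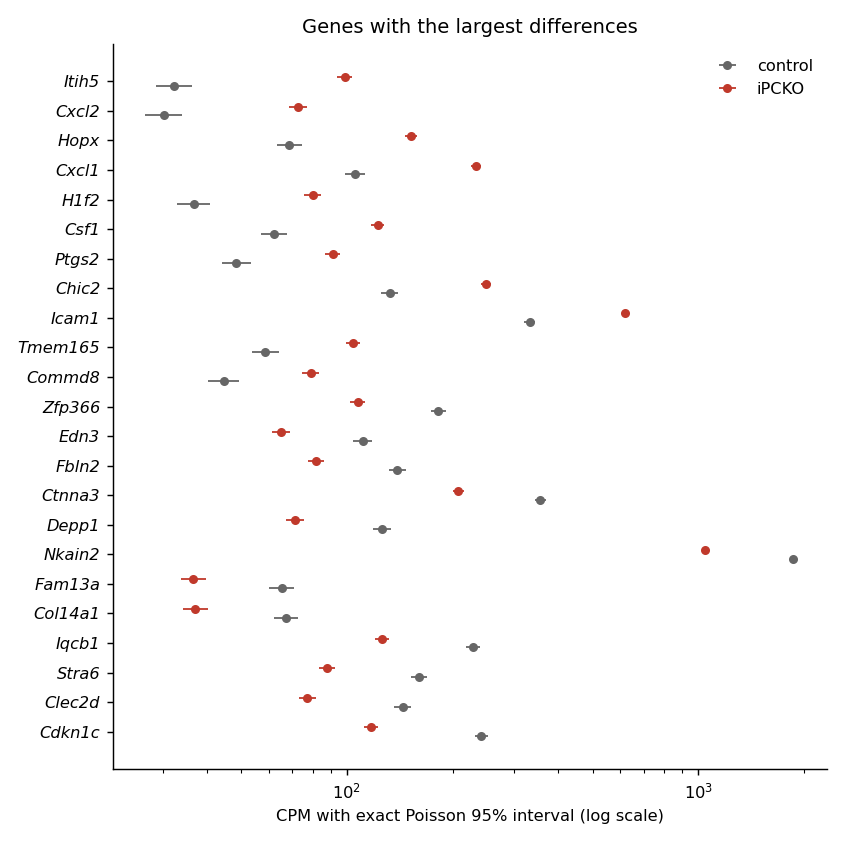
CPM of the genes named for the largest rise and the largest fall among genes of at least 50 CPM, in endothelial cells of the control (grey) and iPCKO (red) library, on a log axis with exact Poisson 95% intervals as bars. The intervals of the 2 libraries do not overlap for any of these genes, which follows from how they were chosen, and Icam1 and Nkain2 have the highest levels among the rises and the falls.

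No junction gene and no transporter of the barrier lists was called, where 2.16% of all genes were called in either direction. Beside so small a share, no call in a short list is no result about its genes. None of 14 tight and adherens junction genes past the filter was called, with log2 ratios from -0.31 to 0.07 and a median of -0.08. Esam, an adhesion molecule of endothelial junctions, had 1084 and 1052 CPM (-0.04), Lsr, a protein of tricellular junctions, 455 and 434 CPM (-0.07), Cdh5 429 and 402 CPM (-0.09) and Ctnnb1, which encodes beta-catenin, 1266 and 1173 CPM (-0.11). The lowest ratio of the list was that of Cgnl1, a cingulin-like junction protein, at -0.31 (-0.39 to -0.22), followed by occludin, Ocln, at -0.27 (-0.36 to -0.18).

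Of 23 solute carriers 19 had a ratio below 0, from -0.47 to 0.23 with a median of -0.15, where 44.9% of all genes outside the chromosome 5 stretch lay above 0. The glucose transporter Slc2a1 had 1237 and 1078 CPM (-0.20, -0.23 to -0.16), the monocarboxylate transporter Slc16a1 2993 and 2562 CPM (-0.22, -0.25 to -0.20), the thyroid hormone transporter Slco1c1 1953 and 1912 CPM (-0.03, -0.06 to 0.00) and the large neutral amino acid transporter Slc7a5 1497 and 1399 CPM (-0.10, -0.13 to -0.07). Mfsd2a, which carries lysophosphatidylcholine with docosahexaenoic acid, had 626 and 538 CPM (-0.22, -0.27 to -0.17). The lowest carrier was Slc1a1, a glutamate transporter, at 97.2 and 70.4 CPM (-0.47, -0.59 to -0.34). All 7 ABC efflux pumps past the filter had ratios below 0, the lowest that of Abcc6 at 38.7 and 26.7 CPM (-0.53, -0.74 to -0.33), with -0.27 (-0.32 to -0.23) for Abcb1a, the P-glycoprotein, and -0.19 (-0.25 to -0.13) for Abcg2.

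Cav1 and Cavin2, genes of caveolae, were lower. Of 11 genes of receptor-mediated transport and caveolae, 2 were called lower, beside 1.09% of all genes, and none higher, with a median of -0.25. Cav1, the main caveolin, had 337 and 206 CPM (-0.71, -0.78 to -0.64), and Cavin2, which shapes caveolae, 399.6 and 247 CPM (-0.70, -0.76 to -0.63). Their partners Cav2 and Cavin1 had ratios of -0.35 (-0.48 to -0.22) and -0.09 (-0.15 to -0.02), so only the former pair passed the fold among these 4. In all other cells the ratio was -0.76 for Cav1 and -0.25 for Cavin2, and in barcodes of 10 to 200 UMIs -0.73 and -0.58. Tfrc, the transferrin receptor, had 1806 and 1294 CPM (-0.48, -0.51 to -0.45), Lrp8 539.8 and 492 CPM (-0.13) and the insulin-like growth factor receptor Igf1r 503 and 468 CPM (-0.10). Plvap, which marks leaky endothelium and is low in the barrier, had 3.7 and 2.11 CPM, from 33 and 35 UMIs.

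**Figure D3:**
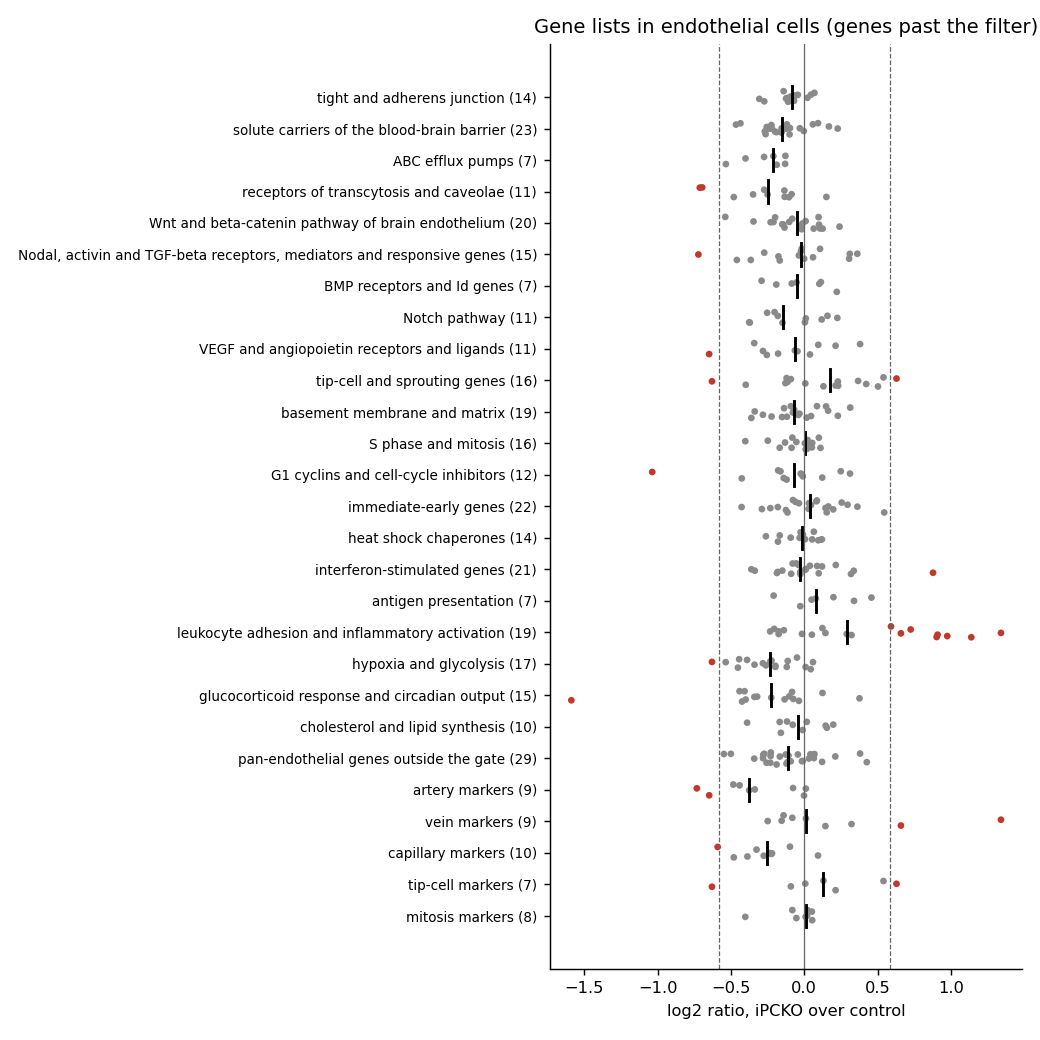
Log2 ratio of iPCKO over control for the genes of each list past the filter, with their number in parentheses; points are genes, red beyond 1.5-fold (dashed lines), and black bars are list medians. The adhesion and inflammation list has 8 red points on the right, and no other list has more than 2 in either direction. The lists were chosen with earlier results of these data known. Most list medians lie left of 0, that of the artery list furthest.

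Genes of the Nodal pathway were examined because the ligand was the target. Nodal binds type II activin receptors, Acvr2a and Acvr2b, and the type I receptor Acvr1b with the co-receptors Tdgf1 or Cfc1, and acts through Smad2, Smad3 and Smad4. In the members, Acvr2a had 27.1 and 27.1 CPM, Acvr2b 5.61 and 4.95 CPM and Acvr1b 5 and 23 UMIs. Tdgf1 had 0 and 1 UMIs, Cfc1 0 and 0 UMIs, Foxh1, a DNA-binding partner of the Smad complex, 0 and 0 UMIs, and the feedback inhibitors Lefty1 and Lefty2 1 and 1 UMIs and 0 and 3 UMIs, in control and iPCKO. The co-receptors and the Lefty genes were thus at or under 3 UMIs in each library. Smad2 had 32.2 and 34.7 CPM (0.11, -0.10 to 0.32), Smad3 49.9 and 44.2 CPM (-0.18, -0.35 to 0.00) and Smad4 130 and 128 CPM (-0.02, -0.13 to 0.08).

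Of 15 genes of Nodal, activin and TGF-beta signalling past the filter, Ltbp4 was called lower, beside 1.09% of all genes, and none higher, with a median of -0.02. Ltbp4, which anchors latent TGF-beta in the matrix, had 435 and 264 CPM (-0.72, -0.79 to -0.66). Artery-marker cells, a class defined further on, held 1865 of its 3883 control UMIs, and its ratio there was -0.23, under the fold. In vein-marker and tip-marker cells the ratio of Ltbp4 was -0.84 and -1.26. The TGF-beta receptors Tgfbr2 and Tgfbr3 had ratios of -0.17 and -0.46, Eng, a co-receptor of endothelium, -0.27, and its type I partner Acvrl1 -0.02. The responsive genes did not share a direction, with 0.31 for Pmepa1, 0.31 for Skil and 0.36 for Tgif1 but -0.36 for Smad7. None of 7 BMP genes was called, beside 2.16% of all genes in either direction. The ratio was -0.29 for Id1, 0.10 for Id2 and -0.09 for Id3, which are targets of BMP signalling.

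No gene of the Wnt or the Notch list was called, beside 2.16% of all genes in either direction. The 20 Wnt genes past the filter had ratios from -0.54 to 0.24 and a median of -0.05. Apcdd1, a target of beta-catenin in the barrier, had 1080.1 and 1021 CPM (-0.08), Axin2 55.2 and 54.7 CPM (-0.01), Lef1 182 and 157 CPM (-0.21), the Norrin receptor Fzd4 136 and 107 CPM (-0.35) and Foxq1, a transcription factor of brain endothelium, 508 and 554 CPM (0.13). The lowest was Tnfrsf19 at 114 and 78.2 CPM (-0.54, -0.66 to -0.42). The 11 Notch genes ranged from -0.38 to 0.23, with Dll4, the ligand of sprouting vessels, at 299.7 and 302 CPM (0.01) and the target Hes1 at 678 and 598 CPM (-0.18). Among 11 genes of VEGF and angiopoietin signalling, the ligand Vegfc alone was called, lower beside 1.09% of all genes, at 67.7 and 43.2 CPM (-0.65, -0.81 to -0.49), but was under the fold in 4 alternatives, at -0.57 without the 0.5% of members with most UMIs, -0.47 after thinning, -0.49 per cell and -0.40 in members with Xist and no Y-linked UMI. Kdr, which lies in the chromosome 5 stretch, had 1898 and 2471 CPM (0.38, 0.36 to 0.41), the angiopoietin receptor Tek 310.4 and 245 CPM (-0.34, -0.41 to -0.27) and Ptprb, the phosphatase of Tek, 1406 and 1157 CPM (-0.28, -0.31 to -0.25).

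Proliferation, stress and matrix lists held few or no called genes, where 2.16% of all genes were called in either direction. None of 16 genes of S phase and mitosis was called by summed UMIs, with a median of 0.01, but this median was 0.34 when every member was thinned to 5000 UMIs and 0.28 when each cell weighed the same; the cause was not tested. Pcna, the DNA clamp, had 231 and 231 CPM (0.00), and Top2a 58 and 54.8 CPM (-0.08). None of 22 immediate-early genes, 14 heat shock chaperones, 19 basement membrane genes, 10 genes of cholesterol and lipid synthesis and 7 of antigen presentation was called. Fos, a gene of early response that also reacts to dissociation, had 2382 and 2201 CPM (-0.11), and Col4a1, a basement membrane collagen, 1774 and 1459 CPM (-0.28).

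Of 21 interferon-stimulated genes past the filter, Cxcl10 alone was called higher, beside 1.07% of all genes, at 16.8 and 30.9 CPM (0.88, 0.61 to 1.15), with 1.72 in all other cells, while Ly6a had 917 and 1159 CPM (0.34), Ifitm3 600.5 and 638 CPM (0.09) and Isg15 30.8 and 31.1 CPM (0.01). In the 2 lists that follow most ratios were below 0, while 44.9% of all genes outside the chromosome 5 stretch lay above it, and 1 gene each was called lower, beside 1.09% of all genes. In hypoxia and glycolysis, 14 of 17 ratios were below 0 and Adm was called, with a median of -0.23. Adm, the vasodilator adrenomedullin, had 223 and 144 CPM (-0.63, -0.72 to -0.54), and Ldha 266 and 227 CPM (-0.23). In the glucocorticoid and circadian list 13 of 15 ratios were below 0, with a median of -0.23, and Mt1, a metallothionein that binds zinc, was called at 50.9 and 16.9 CPM (-1.59, -1.81 to -1.37). The level of Mt1 was 397 and 253 CPM in barcodes of 10 to 200 UMIs and its ratio there -0.65, so members lay below the free RNA in both libraries. Klf9 and Tsc22d3, which glucocorticoids induce, had ratios of -0.41 (-0.49 to -0.33) and -0.44 (-0.53 to -0.35) and were not called.

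Along the vessel tree, most artery and capillary markers had ratios below 0 and vein markers lay on both sides. Of 9 artery markers past the filter, Gkn3 and Vegfc were called lower, beside 1.09% of all genes, and none higher, with a median of -0.38. Gkn3 had 58.8 and 35.3 CPM (-0.73, -0.91 to -0.56), Fbln5, an elastic fibre protein, 197 and 145 CPM (-0.44, -0.53 to -0.35), Hey1, a Notch target, 182 and 141 CPM (-0.38, -0.47 to -0.28), and Sema3g 125 and 98.8 CPM (-0.34, -0.45 to -0.23). Gkn3 was found in 6.83 and 5.13% of members only, and the 1% of cells with the most UMIs held 61.3 and 71.3% of its UMIs. Its ratio was -0.54 after thinning and -0.43 per cell, under the fold. Within artery-marker cells neither called gene passed the fold, with ratios of -0.37 for Gkn3, -0.35 for Vegfc, -0.15 for Hey1 and 0.01 for Sema3g. All of these genes are among the markers that define the class, so smaller ratios there follow in part from how the cells were chosen. Of 10 capillary markers 9 had ratios below 0, where 44.9% of all genes outside the chromosome 5 stretch lay above it, with a median of -0.26, and Cxcl12, the ligand of Cxcr4, was the 1 gene called lower, beside 1.09% of all genes, at 1129.8 and 750.1 CPM (-0.59, -0.63 to -0.55), just past the fold and under it in 4 alternatives at -0.57 to -0.58 and in the cells of no marker class at -0.35. Cxcl12 had 2428 and 2108 CPM in artery-marker cells, a ratio of -0.20, and 716 and 309.9 CPM in tip-marker cells, a ratio of -1.21. In vein-marker cells Cxcl12 had 659 and 386 CPM, a ratio of -0.77. Its level was thus higher in artery-marker cells than in vein- or tip-marker cells, although it is listed for capillary. Spock2 had 4471 and 3417 CPM (-0.39, -0.41 to -0.37). Of 9 vein markers Ackr1 and Vcam1, both also counted in the adhesion list, were called higher, beside 1.07% of all genes, while Nr2f2, the transcription factor of venous fate, had 95 and 95.8 CPM (0.01), and the median was 0.01. Vcam1 had 89.1 and 113 CPM in artery-marker cells and 30.1 and 68.5 CPM in vein-marker cells, with ratios of 0.34 and 1.18. Its level was thus higher in artery-marker cells in both libraries, although it is listed for vein. Of 16 genes of tip cells and sprouting, Trp53i11 was called higher at 118 and 183 CPM (0.63, 0.53 to 0.73) and Adm lower, beside 1.07 and 1.09% of all genes, with a median of 0.17. In tip-marker cells, which held 869 of its 1052 control UMIs, Trp53i11 had 342 and 461 CPM, a ratio of 0.43, and the ratio was 0.83 (0.60 to 1.06) in vein-marker, 1.01 (0.51 to 1.53) in mitosis-marker and -0.63 (-1.27 to 0.02, from 45 and 41 UMIs) in artery-marker cells. Trp53i11 is itself a marker of the tip class, so its UMIs and ratio in these classes depend in part on how the cells were chosen. Adm was under the fold after thinning, at -0.51. None of the 29 pan-endothelial genes outside the gate was called, beside 2.16% of all genes in either direction, and their median was -0.11.

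Shares of cells with these markers were counted after each member had been thinned to 5000 UMIs, which left 643 control and 1156 iPCKO cells. A cell counted for artery, vein or tip when at least 3 of the 10 markers of that class were detected and no other of the 3 classes had more, and for mitosis when at least 3 of 10 mitosis markers were detected. Artery-marker cells made up 27.2% (23.8 to 30.8%) of control and 22.2% (19.9 to 24.7%) of iPCKO members, with exact Clopper-Pearson 95% intervals. For vein the shares were 40.6% (36.8 to 44.5%) and 43.3% (40.5 to 46.3%), for tip 30.3% (26.8 to 34%) and 32.2% (29.5 to 35%) and for mitosis 7.15% (5.28 to 9.43%) and 8.04% (6.54 to 9.77%). The difference of iPCKO minus control was -4.98 (-9.31 to -0.753) percentage points for artery, 2.75 (-2.11 to 7.55) for vein, 1.85 (-2.73 to 6.35) for tip and 0.891 (-1.83 to 3.43) for mitosis, so that the interval of the artery share alone did not include 0. With the markers left out that were 1.5-fold apart between the libraries, the artery shares were 28 and 22.5%, and the difference was as large. With at least 4 markers in place of 3, the artery shares were 18.4 and 16.4%, a difference of -1.92 (-5.75 to 1.78) points whose interval included 0. At that limit vein had 19.4 and 27.7%, a difference of 8.24 (4.08 to 12.3), and tip 19.1 and 23.8%, a difference of 4.66 (0.597 to 8.58). The vein list holds Ackr1 and Vcam1, called higher, and the tip list Trp53i11, called higher, and Adm, called lower. Shares without these markers were counted only at the limit of 3. The difference there was 2.39 (-2.51 to 7.27) for vein and 1.42 (-2.48 to 5.19) for tip. The artery interval also included 0 in members with Xist and no Y-linked UMI, at -3.14 (-8.98 to 2.49), and with cells tied between classes left out, a setting chosen after seeing the data, at -3.14 (-7.21 to 0.809) from shares of 22.1 and 18.9%. Which share stood apart thus depended on these choices.

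These classes are ranges of a marker count and not cell types. Exactly 3 artery markers were found in 83 control and 123 iPCKO cells and exactly 2 in 135 and 263, and for vein the numbers were 213 and 308 with 3 and 183 and 332 with 2. The vein markers were found widely, with a median of 2 in cells of no class in both libraries. A tie with another class concerned 33 control and 38 iPCKO artery-marker cells. Artery-marker cells had a median of 5 artery, 2 vein and 1 tip markers in both libraries, and 78 control and 121 iPCKO cells, 12.1% (9.71 to 14.9%) and 10.5% (8.76 to 12.4%), carried none of the classes.

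**Figure D4:**
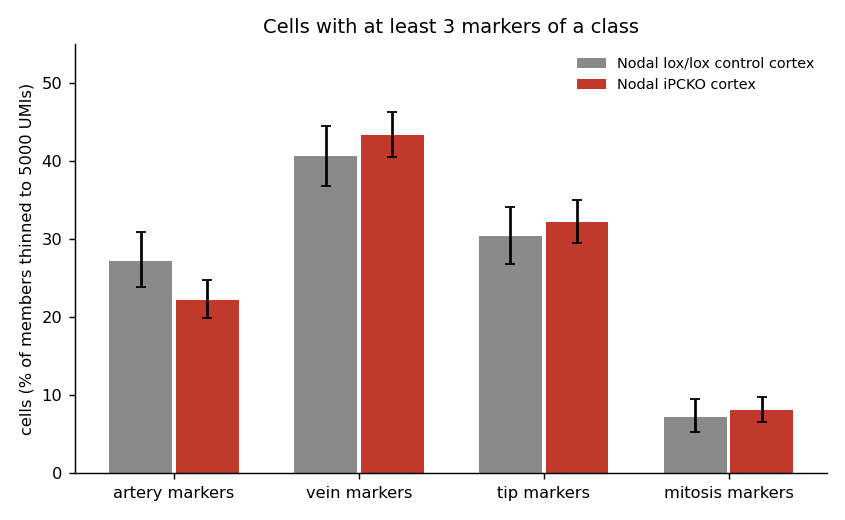
Share of endothelial cells, thinned to 5000 UMIs, with at least 3 artery, vein, tip or mitosis markers in the control (grey, 643 cells) and iPCKO (red, 1156 cells) library, in percent with exact Clopper-Pearson 95% intervals; a cell tied between classes counts in each. The artery bar is 27.2% in the control and 22.2% in iPCKO, and the other pairs lie closer together.

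A group of neighbouring genes on chromosome 5 was higher in iPCKO endothelium. Medians of 25 consecutive genes past the filter were taken along each chromosome, 6115 windows in all, and the highest, 0.55, ran from Arap2 to Slain2. Outside the windows that touched this stretch the highest median was 0.11 and the lowest -0.21. The stretch was set from Arap2 to Igfbp7, chromosome 5 from 62759788 to 77555931 of GRCm39, after these values had been seen, so its own ratio in members is a description. Of its 43 genes past the filter, 42 had a ratio above 0, 16 were called higher and none lower, and the median log2 ratio was 0.53, 1.45-fold, with quartiles of 0.38 and 0.66. Of the remaining 6574 genes 44.9% had a ratio above 0 and 0.837% were called higher, and 16 of all 71 genes called higher, 22.5%, lay in this stretch.

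The genes of the stretch have varied roles. Rpl9, a protein of the large ribosomal subunit, had 1191 and 1956 CPM (0.72, 0.68 to 0.75), Igfbp7, a secreted binding protein of endothelium, 3201 and 4769 CPM (0.58, 0.56 to 0.59), and Klhl5, a kelch protein, 221 and 327 CPM (0.56, 0.49 to 0.64). Pds5a, a regulator of cohesin, had 57.6 and 90.7 CPM (0.65, 0.51 to 0.80), Clock, a circadian transcription factor, 51.9 and 67.4 CPM (0.38, 0.22 to 0.54) and Kit, the stem cell factor receptor, 26.8 and 51.9 CPM (0.95, 0.74 to 1.17). The single gene below 0 was Gabrb1, a GABA receptor subunit, at 23.3 and 19.9 CPM (-0.23, -0.48 to 0.03). The nearest genes past the filter on either side, Stim2, which ends at 54278399, and Adgrl3, which starts at 81167344, had ratios of 0.04 and 0.15. Kdr and Hopx, whose ratios are given above, lie inside. The called Cxcl1, Cxcl2 and Cxcl10 lie outside it on the same chromosome, 20.9, 20.9 and 22.3 Mb from the centre of the stretch.

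The stretch was also higher outside the endothelium. Its median log2 ratio was 0.44 over 41 genes in microglia, 0.65 over 49 genes in astrocytes, 0.52 over 55 genes in all non-member cells and 0.52 over 59 genes in barcodes of 10 to 200 UMIs, all from the same 2 libraries. The lungs of the series are separate libraries that did not enter the choice of the stretch. In all cells of the P21 Bdnf lungs, 51 of 52 genes of the stretch were higher in iPCKO than in the control, with a median of 0.59 beside 0.00 for other genes, and in the P21 Hgf lungs 42 of 48, with 0.51 beside 0.04. Between the 2 lung controls, Hgf over Bdnf, the median of the stretch was -0.13 beside -0.08. The 3 iPCKO groups differ in the floxed gene and share the Pdgfrb(BAC)-CreERT2 transgene, which the labels of the 3 controls do not name, so the transgene, the chromosome that carries it and the deletion cannot be told apart from the genotype. Within the stretch, the endothelial ratio of Kdr lay at the lower quartile of 0.38 and that of Igfbp7 between the quartiles, and Hopx, Kit and Chic2 lay above the upper quartile of 0.66.

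**Figure D5:**
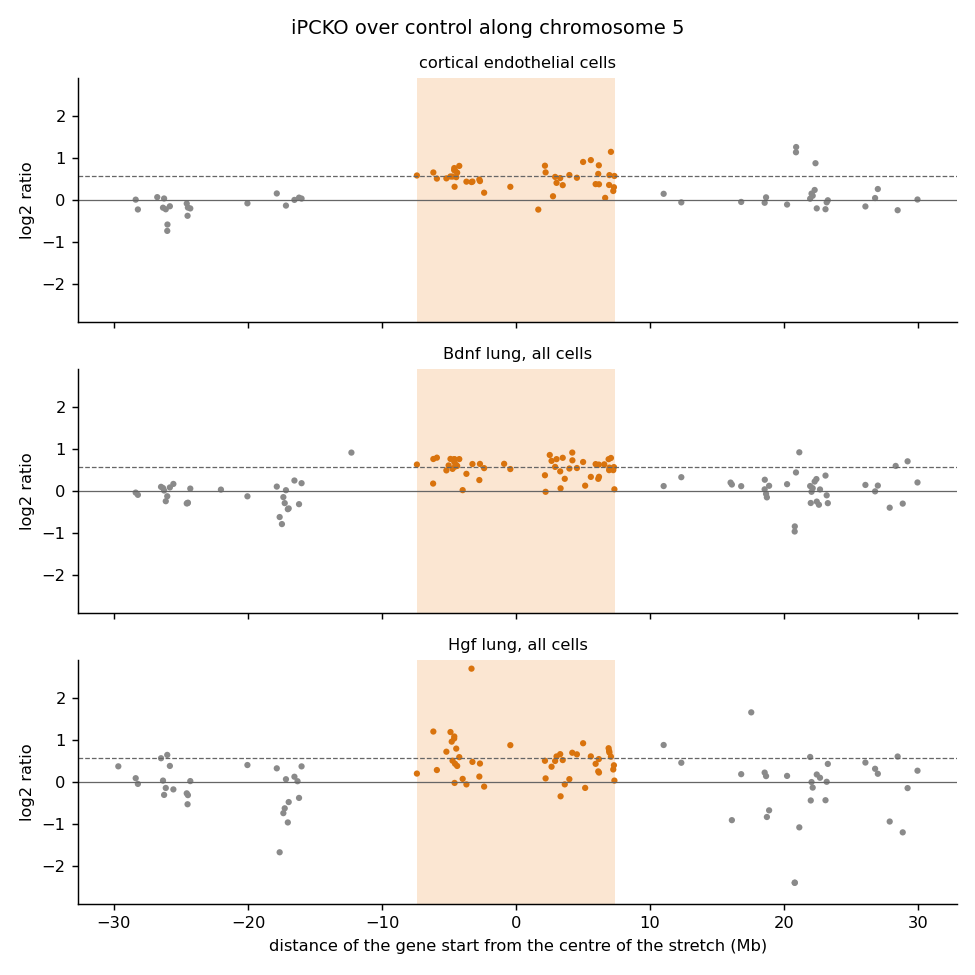
Log2 ratio of iPCKO over control for genes past the filter within 30 Mb of the centre of the chromosome 5 stretch, against the distance of the gene start from that centre in Mb, in cortical endothelial cells (Nodal, top) and in all cells of the Bdnf and Hgf lungs (middle and bottom); the shaded band is the stretch, the dashed line 1.5-fold. In the top panel the 43 genes in the band sit around 0.53 and most genes on both sides near 0, except Cxcl1, Cxcl2 and Cxcl10 above the fold on the right and Fgfbp1 below it on the left, and the band is also raised in both lung panels.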

How the data were processed

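Cells of 2 pooled mice per library were captured on beads whose oligonucleotides bind the 3′ ends of transcripts. The authors aligned and counted reads with STAR 2.7.10a on GRCm39, per the labels and the submitters' processing notes, with Gencode genes. The deposited values are estimated counts of UMIs per gene and barcode, in which reads that match several genes are shared between them, so 9.08 and 9.21% of the entries of the cortex libraries are fractions. Each entry of a gene in a barcode was rounded to a whole number before genes were detected or summed over cells. Depth per library and per cell is given with the results.

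Members were chosen by the stated limits. No doublet caller was run; the limit on excluded genes and an alternative without the 0.5% of members with most UMIs stood in for it. CPM are the summed UMIs of a gene scaled by the summed UMIs of all genes in the same cells. Genes with a mean CPM of at least 20 over the 2 libraries were compared, and a gene was called when its CPM differed at least 1.5-fold. Intervals are exact Poisson for a CPM, conditional exact for a ratio and Clopper-Pearson for a share, and the limit at a count of 0 is 3 counts of the total. PCR and cell-to-cell variation are not in these intervals. The members and gene lists were chosen with earlier results of these data known. Named genes are the 12 with the largest rise and the 12 with the largest fall among genes with a mean of at least 50 CPM, the called genes of each list with up to 4 of highest level, and the 15 of highest level and of highest ratio over other cells. Other genes are named for their place in a pathway or after their values were seen. Some items that this rule would name are not reported here and were left out of the lists. Positions are from Gencode on GRCm39, matched by gene ID for 56323 of 56884 features. Promoter windows are from RefSeq on GRCm38.p6. The older symbol of Bmal1 and the duplicated symbol Aldoa were not used. The steps were run in Python 3.11.15 with numpy 2.4.6, scipy 1.17.1, pandas 2.3.3 and matplotlib 3.10.9 and tested on simulated data. Alternatives covered scaling, filters, membership, thinning, weighting, free RNA, sex-linked transcripts, marker number and rounding.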

Additional observations from a re-analysis of the deposited data

How the results depend on the processing

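With 1 library per genotype, no replicate could be left out, and differences between mice cannot be told apart from differences between genotypes. No paired analysis was possible because each genotype has 1 library. The numbers of genes called higher in iPCKO (71) and genes called lower in iPCKO (72) moved to 253 and 270 at a mean of at least 5 CPM, to 3080 and 4305 with no level filter, to 21 and 18 at a mean of at least 100 CPM, to 15 and 5 at 2-fold, and to 28 and 34 among genes at or above their level in barcodes of 10 to 200 UMIs. In small subsets they were 1211 and 1240 in the 22 control and 33 iPCKO members with a Y-linked UMI (Ddx3y, Eif2s3y, Kdm5d or Uty) and no Xist, and 664 and 471 in the 78 and 121 members of no marker class. In the members with a Y-linked UMI and no Xist the median of the chromosome 5 stretch was 0.60. Thinning left 17 control and 21 iPCKO cells of this subset. There the difference of iPCKO minus control was -13.7 (-45.1 to 20.0) percentage points for vein, 20.4 (-12.2 to 47.7) for tip and 4.76 (-15.3 to 23.8) for mitosis. Each of these intervals included 0. For vein at 4 or more markers in all thinned members the difference was 8.24. Directions reversed, in members with a Y-linked UMI and no Xist, for Vcam1 (-0.76), Hba-a1 (-1.13) and Mall (0.46). Of 43 called named genes, 38 stayed past 1.5-fold with each cell weighted equally, 39 without the 0.5% of members with most UMIs, 39 after thinning to 5000 UMIs and 40 with at least 6 gate markers, and 43 of 43 kept their direction under each of these. Relb, Vegfc and Cxcl12 were under the fold in 4 of the settings over most members each, Nrgn in 3, Gkn3, Igfbp3 and Hba-a1 in 2 and Adm, Vcam1, Mall and Rgs5 in 1. The median of the mitosis markers was 0.01, but 0.42 after thinning and 0.37 per cell. Leaving out the stretch, leaving out the 1% of cells with most UMIs of a gene, leaving out the differing vessel markers and leaving out tied cells were chosen after seeing the data. Without the stretch, 55 genes were called higher. Causes were not tested.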

Other observations

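Transcripts of blood and nerve cells were spread unevenly over endothelial cells. Hba-a1, a haemoglobin chain, had 1004 and 1549.8 CPM in control and iPCKO, a log2 ratio of 0.63, but it was found in 4.77 and 5.97% of members, and 8 control cells held 98.8% of its UMIs and 15 iPCKO cells 71%. The ratio was under the fold at 0.44 with at least 6 gate markers and 0.54 with 0 UMIs of the excluded genes. Without the 8 and 15 cells 109 control and 7432 iPCKO UMIs remained and the ratio was 5.20, and those of Hba-a2, Hbb-bs and Hbb-bt were 4.54, 5.67 and 5.46. Nrgn, a neuronal calmodulin-binding protein, had 11.3 and 54.2 CPM and a ratio of 2.26, with 654 UMIs in a single iPCKO cell, and the ratio was 0.37 without the 1% of members with the most UMIs of the gene. Rtn1 and Basp1, both abundant in neurons, had 4.82 and 44.8 CPM and 14.6 and 70.3 CPM, ratios of 3.22 and 2.27, although the shares of members with a UMI were 4.38 and 3.51% and 11.5 and 8.43%, lower in iPCKO for both. The summed level of 5 blood markers was 2634 and 3776 CPM, and of 12 neuron markers 167 and 292 CPM.

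In the 250 bases before the RefSeq start (GRCm38.p6), the cyclic AMP element TGACGTCA was present in 2 of 19 immediate-early genes with a window, Dusp1 and Maff, 10.5% against 1.77% of 27025 genes, and the AP-1 element, TGACTCA or TGAGTCA, in 0 of 19 against 5.16%. The E-box CACGTG was present in 7 of 21 genes of the glucocorticoid and circadian list, 33.3% against 6.86%, and the Wnt element CTTTGAT in 1 of 11 genes, Tnfrsf19, 9.09% against 3.72%. Both strands were searched, and a match is a description of sequence. The lists were drawn up by pathway, so a share that differs from that of all genes is no result of the comparison.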
